A study of Rattus norvegicus with 8 samples.

Results

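Polyamine metabolism was followed through 9 genes in hyperthyroid and control rats, in the tibialis anterior, a hind limb muscle made mostly of fast fibres. They are the synthetic enzymes Odc1, Amd1, Srm and Sms, the catabolic enzymes Sat1 and Smox, and the antizyme system of Oaz1, Oaz2 and Azin1. All probe sets that carried 1 of these symbols, and no other, in the platform annotation were taken, which gave 13 of 31099 probe sets for 9 of 14217 genes. A further probe set carried Smox together with another symbol and was left out. The genes were chosen by pathway, with the log2 fold changes of this same contrast already known, so the differences between the groups below describe these arrays and support nothing further.

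The hyperthyroid group held 4 adult Sprague-Dawley rats given triiodothyronine (T3), the active form of thyroid hormone, into the peritoneum. The dose was 25 µg per 100 g, repeated every 2 days over 6 weeks, and the muscle was taken 24 hours after the final injection. The control group held 4 untreated adult Sprague-Dawley rats, and no vehicle injection is named for them. Each group held 3 males and 1 female, and each rat gave 1 expression array. The hyperthyroid arrays are replicates 1, 2, 3 and 5 and the control arrays are replicates 7, 8, 9 and 11.

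Polyamines are small cationic metabolites that bind nucleic acids and are needed for growth and translation. Putrescine is made from ornithine by ornithine decarboxylase (Odc1), and is extended to spermidine and then spermine by spermidine synthase (Srm) and spermine synthase (Sms), with aminopropyl groups from S-adenosylmethionine that the decarboxylase Amd1 has activated. Antizymes bind ornithine decarboxylase and direct it to the proteasome, the antizyme inhibitor Azin1 takes antizyme away from the enzyme, and Sat1 and Smox run the pathway backwards.

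The promoters of the synthetic enzymes are shown because these enzymes held the largest and the smallest differences between the groups. Each sequence is the 250 bases before the transcript start given by RefSeq (build GRCr8), written 5′ to 3′ on the strand of the gene. Odc1 lies on the plus strand at chr6:46058415-46058664, Amd1 on the minus strand at chr20:45265983-45266232, Srm on the plus strand at chr5:164308752-164309001 and Sms on the plus strand at chrX:41331753-41332002. Other annotated transcripts of Odc1, Amd1 and Sms begin further upstream, so that those windows overlap the annotated gene. Capitals mark TATAA and CACGTG on either strand.
Odc1 promoter: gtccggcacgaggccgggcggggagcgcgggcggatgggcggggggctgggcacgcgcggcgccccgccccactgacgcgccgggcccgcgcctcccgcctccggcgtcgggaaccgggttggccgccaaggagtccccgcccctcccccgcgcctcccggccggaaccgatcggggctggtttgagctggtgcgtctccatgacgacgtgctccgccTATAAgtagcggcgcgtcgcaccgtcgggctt
Amd1 promoter: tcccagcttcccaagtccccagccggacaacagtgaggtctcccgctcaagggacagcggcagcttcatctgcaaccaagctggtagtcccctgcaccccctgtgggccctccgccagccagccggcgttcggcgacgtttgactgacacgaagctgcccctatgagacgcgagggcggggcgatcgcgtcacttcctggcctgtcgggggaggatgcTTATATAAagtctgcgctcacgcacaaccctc
Srm promoter: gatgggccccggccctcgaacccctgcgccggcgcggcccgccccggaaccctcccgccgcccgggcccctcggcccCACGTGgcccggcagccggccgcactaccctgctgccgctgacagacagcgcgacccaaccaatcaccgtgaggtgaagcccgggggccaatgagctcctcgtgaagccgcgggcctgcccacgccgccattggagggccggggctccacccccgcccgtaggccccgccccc
Sms promoter: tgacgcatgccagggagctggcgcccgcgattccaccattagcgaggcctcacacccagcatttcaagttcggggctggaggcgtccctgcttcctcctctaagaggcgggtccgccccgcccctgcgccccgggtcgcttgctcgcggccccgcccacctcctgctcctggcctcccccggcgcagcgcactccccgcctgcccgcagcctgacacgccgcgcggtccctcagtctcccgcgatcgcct

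Odc1 carried TATAA 32 to 28 bases before its start, and Amd1 carried it 29 to 25 bases before its start, with an overlapping match on the other strand. Srm held no TATAA but held CACGTG, the E-box sequence that reads the same on both strands, 173 to 168 bases before its start. Sms held neither. Of the 8 members with a promoter in the table, TATAA was present in 3, the other being Oaz1, and CACGTG in 2, Srm and Oaz1. Over all 33469 promoters of the same length, TATAA was present in 24.0% and CACGTG in 5.59%. The hexamer AGGTCA, to which nuclear receptors including those of thyroid hormone bind, was found on neither strand in any of these 8 windows and in 14.1% of all promoters. These matches describe letters in a window and say nothing of the binding of a factor. GC content of these windows was 78.0% for Odc1, 64.0% for Amd1, 78.4% for Srm and 72.8% for Sms, against a median of 51.2% over all promoters.

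Signals are linear intensities, whose mean was 150 on every array once 2% of the values at each end had been trimmed. Differences between the groups were fitted with limma on log2(intensity + 3.41), over the 18625 probe sets whose mean lay above a filter on low values at an intensity of about 22.4. A fold change on this scale understates that of low transcripts. Of the 13 member probe sets, 12 passed the filter, which covered all 9 genes, and the probe set that did not is the third of Azin1. Levels of different probe sets are not comparable, so each is set only against itself.

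The groups also differed over whole arrays. Array medians ran from 38.8 to 42.0 in the hyperthyroid group and from 43.5 to 54.9 in the control group. Summed intensities ran from 9155050 to 9640050 on hyperthyroid arrays and from 9914840 to 10218000 on control arrays, so neither measure overlapped between the groups. The scaling chosen therefore sets part of every fold change: with arrays centred on their medians, the median of all probe sets was 0.21 and 11 of the 12 members lay above 0. Control replicates 7 and 11 stood apart in slow-fibre markers, all 8 of which were measured. Their summed intensity ran from 1394 to 8919 on hyperthyroid arrays and from 4504 to 43137 on control arrays, with the 2 highest sums, 43137 and 29446, on control replicates 7 and 11. The same 2 arrays were highest in the Schwann cell and nerve markers (4 of 6 measured, 644 to 1192 on hyperthyroid and 399 to 3219 on control arrays) and in the smooth muscle markers (5 of 5 measured, 816 to 1030 on hyperthyroid and 1021 to 1704 on control arrays). By gene, 0 of 8 slow-fibre, 1 of 4 nerve and 0 of 5 smooth muscle markers had a log2 fold change above 0. The medians were -3.00, -0.18 and -0.57, and none of these genes had a limma adjusted p under 0.05. In 1 array of each group, hyperthyroid replicate 1 and control replicate 11, Xist was high, at 669 and 1856 against 1.14 to 4.70 on the other 6 arrays, and the Y-linked Eif2s3y was low. That is 1 array for the 1 female the design gives each group. Fast-fibre markers were abundant on all arrays, with sums of 210780 to 268523 on hyperthyroid and 253255 to 306860 on control arrays. Of these 8 genes 1 had a log2 fold change above 0, with a median of -0.27. Sums for endothelium, macrophage, adipocyte and erythroid markers overlapped between the groups. By gene, 4 of 5 adipocyte markers had a log2 fold change above 0 (median 0.67). So did 2 of 4 for endothelium (median 0.03), 1 of 5 for macrophages (-0.36) and 0 of 2 erythroid markers (-0.33). The erythroid sum was also highest on control replicates 11 and 7 (12834 and 9000), and the macrophage sum on control replicate 11 (508). Endothelium and adipocyte sums were highest on hyperthyroid replicate 1. In bulk muscle, fewer cells of a type and less RNA per cell cannot be told apart.

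Among the synthetic enzymes, the probe sets of Odc1 and Amd1 and 1 of 2 for Sms had higher mean values in hyperthyroid muscle, while Srm and the other probe set of Sms differed little. No member passed the test over all probe sets, at an adjusted p under 0.05, in either direction, and the smallest limma adjusted p of a member was 0.364. In the same fit 6 of the 18625 probe sets passed, 0.0322%, each with a higher mean in hyperthyroid muscle. An unadjusted p under 0.05 was reached by 3 of the 12 member probe sets, all higher, with 9.68% of all probe sets reaching it in either direction, 4.91% as higher and 4.76% as lower. Without moderation of the variance, no member passed either. In that fit an unadjusted p under 0.05 was reached by Odc1 and Sms 1394243_at, as higher, and by Azin1 1370191_at, as lower. Amd1 did not reach it, and 9.01% of all probe sets did. The log2 fold change was above 0 for 8 of the 12 and below 0 for 4, with a median of 0.19, beside 49.2% above 0 and a median of -0.0077 over all probe sets. For no member did the 2 groups separate completely, while they did so for 6.15% of all probe sets, 2.99% with hyperthyroid above control.

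**Figure D1:**
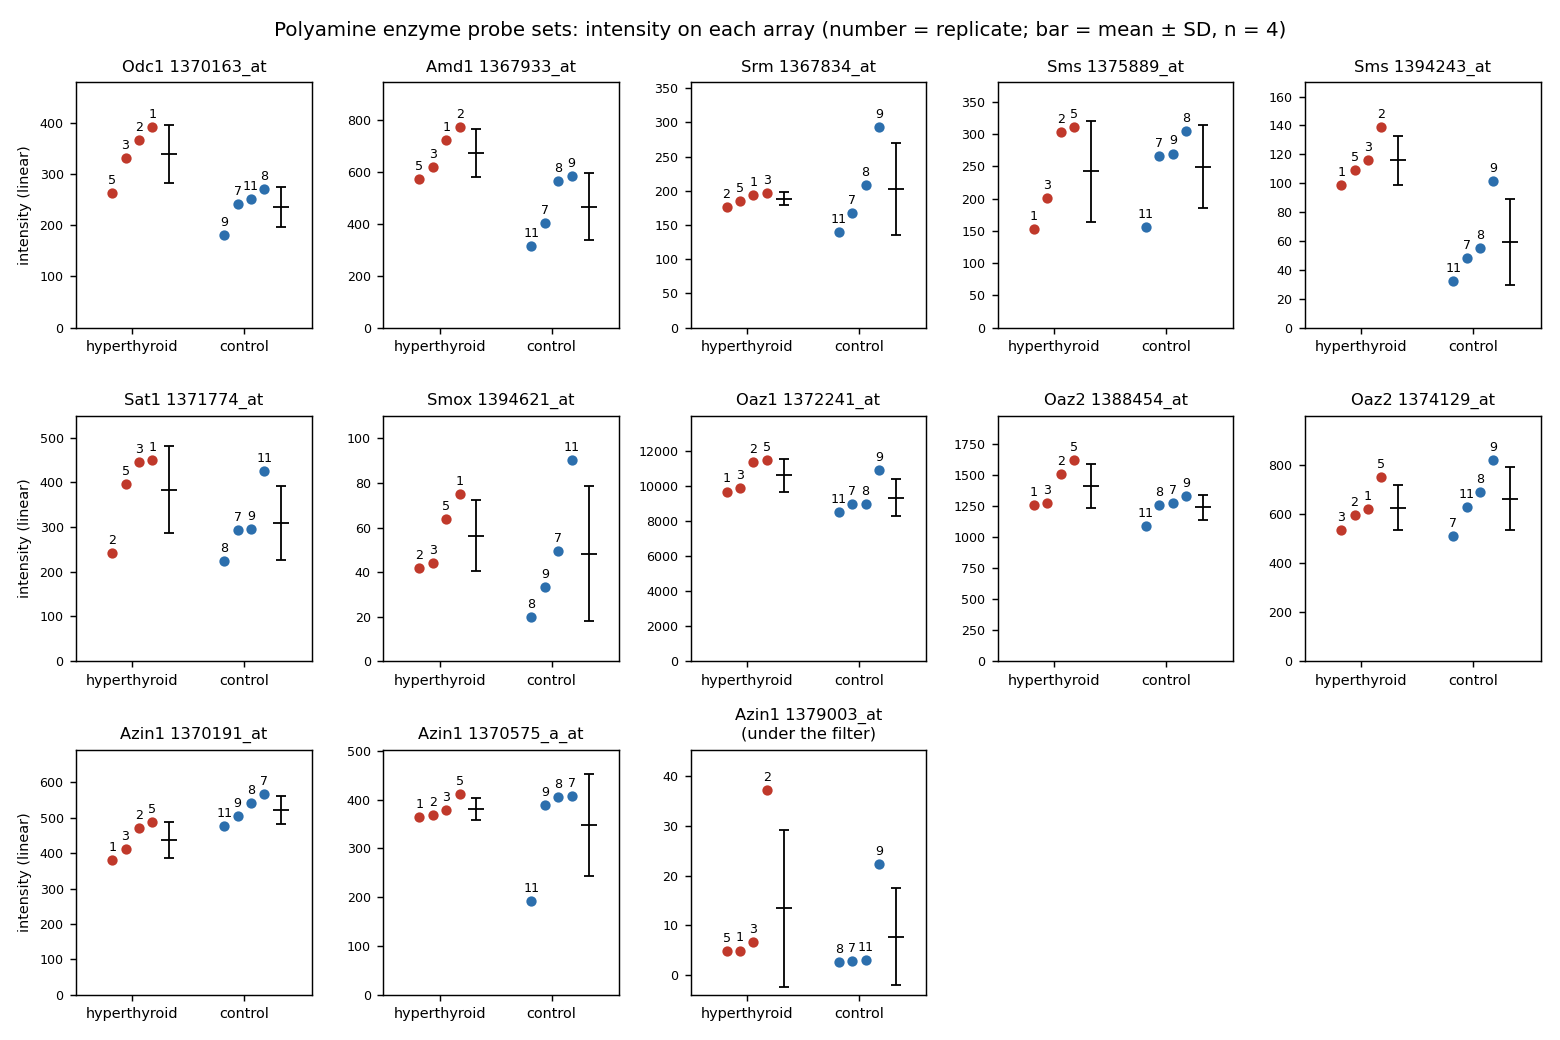
Intensity (linear scale) of the 13 probe sets of the polyamine genes on each array, hyperthyroid on the left and control on the right of each panel, with the replicate number above each point and a bar for the mean ± SD (n = 4 each). For Odc1, Amd1 and Sms 1394243_at, 3 of 4 hyperthyroid points lie above every control point, and in each case 1 hyperthyroid and 1 control array cross.

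Odc1, the first enzyme of the pathway and a protein of rapid turnover, read 393, 367, 332 and 263 on hyperthyroid replicates 1, 2, 3 and 5. It read 242, 271, 180 and 251 on control replicates 7, 8, 9 and 11. The groups overlapped by 1 pair of arrays, hyperthyroid replicate 5 lying just under control replicate 8, and the other 3 hyperthyroid arrays lay above every control. The means were 339 ± 56.4 in hyperthyroid and 236 ± 39.1 in control muscle (SD, n = 4 each), giving a log2 fold change of 0.52 ± 0.20 (limma SE), or 1.43-fold. Without control replicates 7 and 11, the arrays of high slow-fibre signal, it was 0.59 ± 0.24, and without the 2 arrays of high Xist it was 0.47 ± 0.22. Over all 20 alternatives it ran from 0.39, without control replicate 9, to 0.74 with centring on array medians. With 1 array left out, its unadjusted limma p rose above 0.05 without hyperthyroid replicate 1 (0.060), hyperthyroid replicate 2 (0.054) or control replicate 9 (0.064).

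Amd1, which supplies the aminopropyl donor, read 721, 774, 619 and 572 on hyperthyroid replicates 1, 2, 3 and 5. Its control values were 403, 563, 583 and 315 on replicates 7, 8, 9 and 11. Hyperthyroid replicate 5 lay just under control replicate 9, and the 2 low controls were replicates 11 and 7. The mean was 672 ± 92.3 in hyperthyroid and 466 ± 129 in control muscle (SD, n = 4 each), giving a log2 fold change of 0.56 ± 0.20, or 1.47-fold. The lowest 2 of all 8 arrays for Amd1 were the 2 with the most slow-fibre, nerve and smooth muscle marker signal. Without them the log2 fold change was 0.22 ± 0.18, and without the 2 arrays of high Xist it was 0.35 ± 0.19. Both pairs hold control replicate 11, which also had the highest array median, 54.9. Without that array alone the log2 fold change was 0.39 ± 0.18. With 1 array left out, the unadjusted limma p rose above 0.05 without control replicate 11 (0.053) or hyperthyroid replicate 2 (0.051). The part of the slow-fibre, nerve and smooth muscle markers, or of the array median, in the difference was not tested.

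Sms, which makes spermine and lies on the X chromosome, was measured by 2 probe sets that passed the filter and gave unlike values. On probe set 1394243_at hyperthyroid replicates 1, 2, 3 and 5 read 98.6, 139, 116 and 109, and control replicates 7, 8, 9 and 11 read 48.2, 55.4, 101 and 32.0. Hyperthyroid replicate 1 lay just under control replicate 9, and the other 3 controls lay far below every hyperthyroid array. The mean was 116 ± 17.2 in hyperthyroid and 59.2 ± 29.7 in control muscle (SD, n = 4 each), and the log2 fold change of 1.03 ± 0.34 was the highest of the 12. Control replicates 11 and 7 were again the 2 lowest arrays, and without them the log2 fold change was 0.59 ± 0.32. Without the 2 arrays of high Xist it was 0.87 ± 0.34. The part of the slow-fibre, nerve and smooth muscle signal on those controls was not tested for Sms either.

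On the other probe set of Sms, 1375889_at, hyperthyroid replicates 1, 2, 3 and 5 read 153, 304, 200 and 312, and control replicates 7, 8, 9 and 11 read 267, 305, 270 and 156. The groups covered nearly the same range, with a log2 fold change of -0.06 ± 0.27. The sign of that log2 fold change turned under 5 of 20 alternatives, among them the average of both Sms probe sets. The lowest array of each group, at 153 and 156, was the one of high Xist. On 1394243_at the same arrays were also the lowest of their groups. Averaging both probe sets gave a log2 fold change of 0.49 for Sms. Whether they detect different transcripts was not tested.

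Srm, the synthase that makes spermidine, read 194, 176, 197 and 185 on hyperthyroid replicates 1, 2, 3 and 5, against 167, 208, 294 and 139 on control replicates 7, 8, 9 and 11. All hyperthyroid arrays lay inside the range of the controls, with means of 188 ± 9.53 in hyperthyroid and 202 ± 67.4 in control muscle (SD, n = 4 each). The log2 fold change was -0.05 ± 0.23. It turned to 0.15 without control replicate 9, the highest array, and was -0.39 ± 0.22 without control replicates 7 and 11, the 2 lowest.

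**Figure D2:**
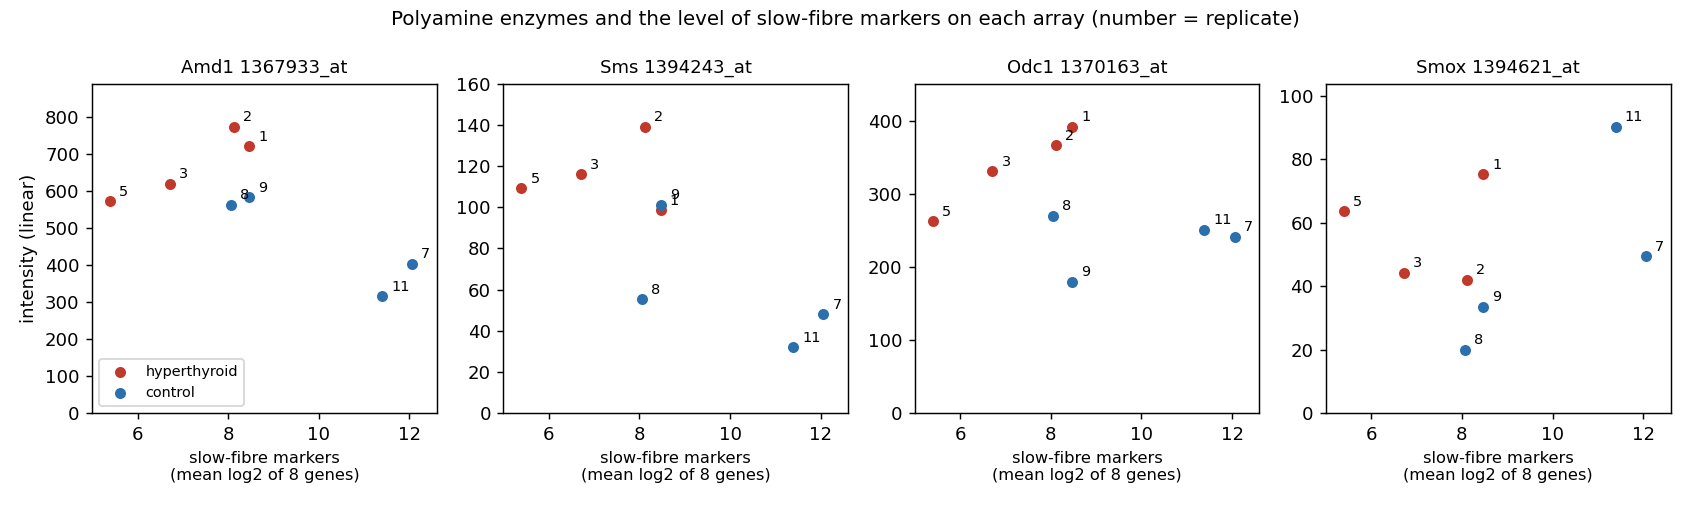
Intensity (linear scale) of Amd1, Sms 1394243_at, Odc1 and Smox on the vertical axis against the mean log2 level of 8 slow-fibre markers on the horizontal axis, 1 point per array, with hyperthyroid arrays in red, control arrays in blue and the replicate number beside each point. Control replicates 7 and 11, at the right, are the lowest arrays for Amd1 and Sms, whereas for Odc1 control replicate 9 is the lowest and for Smox control replicate 11 is the highest.

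With all 8 arrays and the deposited scaling, neither catabolic enzyme reached an unadjusted p under 0.05, and the groups overlapped widely for both. Sat1, the acetyltransferase that marks spermidine and spermine for oxidation or export and is also X-linked, read 449, 242, 446 and 395 on hyperthyroid replicates 1, 2, 3 and 5. It read 293, 223, 295 and 424 on control replicates 7, 8, 9 and 11. Hyperthyroid replicate 2 lay among the low controls and control replicate 11 among the high hyperthyroid arrays. The means were 383 ± 97.3 in hyperthyroid and 309 ± 83.7 in control muscle (SD, n = 4 each), or a log2 fold change of 0.30 ± 0.24. It was 0.51 ± 0.22 without hyperthyroid replicate 2, the lowest of its group, where the unadjusted limma p came under 0.05, as it also did with centring on array medians (0.52 ± 0.24). It was 0.16 without control replicate 8, the lowest array, and 0.53 ± 0.27 without control replicates 7 and 11.

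Smox, the oxidase that turns spermine back into spermidine, read 75.2, 42.0, 44.2 and 63.6 on hyperthyroid replicates 1, 2, 3 and 5. It read 49.5, 20.0, 33.5 and 90.2 on control replicates 7, 8, 9 and 11. The highest array of each group was the one of high Xist, and all hyperthyroid arrays lay within the control range. The means were 56.3 ± 15.9 in hyperthyroid and 48.3 ± 30.4 in control muscle (SD, n = 4 each), with a log2 fold change of 0.35 ± 0.46. This value rested on single arrays: it was 0.03 without control replicate 8, the lowest, and 0.98 ± 0.48 without control replicates 7 and 11, the 2 highest controls. Without the 2 arrays of high Xist it was 0.56 ± 0.51.

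The antizyme system showed small differences of both signs. Oaz1, the main antizyme, read 9683, 11367, 9875 and 11469 on hyperthyroid replicates 1, 2, 3 and 5. It read 8960, 8973, 10899 and 8486 on control replicates 7, 8, 9 and 11. Control replicate 9 lay among the hyperthyroid arrays and the other 3 controls lay below all of them, with a log2 fold change of 0.19 ± 0.12. It depended on the scaling, at 0.33 ± 0.12 after quantile normalization and 0.41 ± 0.16 with centring on array medians, both with an unadjusted limma p under 0.05. Without control replicates 7 and 11 it was 0.10 ± 0.14.

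Oaz2, a second antizyme of broad expression, had 2 probe sets of opposite sign. Probe set 1388454_at gave a log2 fold change of 0.19 ± 0.14, with 1255 to 1616 on hyperthyroid and 1091 to 1324 on control arrays. Probe set 1374129_at gave -0.07 ± 0.17, with 535 to 751 on hyperthyroid and 512 to 819 on control arrays. The ranges of the groups overlapped on both, and the log2 fold change of the second was 0.04 without control replicate 9 and -0.27 without control replicates 7 and 11.

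Azin1, the antizyme inhibitor, is a relative of ornithine decarboxylase that has no decarboxylase activity of its own. Probe set 1370191_at read 380, 472, 411 and 489 on hyperthyroid replicates 1, 2, 3 and 5, against 568, 541, 506 and 477 on control replicates 7, 8, 9 and 11. Below every control lay 3 of the 4 hyperthyroid arrays, and replicate 5 lay above control replicate 11. The means were 438 ± 51.1 in hyperthyroid and 523 ± 39.7 in control muscle (SD, n = 4 each), and the log2 fold change of -0.26 ± 0.15 was the lowest of the 12. It stayed below 0 under all 20 alternatives, from -0.31 without hyperthyroid replicate 5 to -0.04 both with centring on array medians and for the mean of its probe sets, and without control replicates 7 and 11 it was -0.26 ± 0.18.

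The second Azin1 probe set, 1370575_a_at, read 364, 368, 380 and 412 on hyperthyroid replicates 1, 2, 3 and 5, against 407, 405, 389 and 193 on control replicates 7, 8, 9 and 11. Its log2 fold change of 0.19 ± 0.23 rested on the low value of control replicate 11, without which it was -0.07. The third, 1379003_at, lay under the filter, with 4.93, 37.2, 6.66 and 4.78 on hyperthyroid replicates 1, 2, 3 and 5, against 2.79, 2.56, 22.4 and 3.10 on control replicates 7, 8, 9 and 11.

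**Figure D3:**
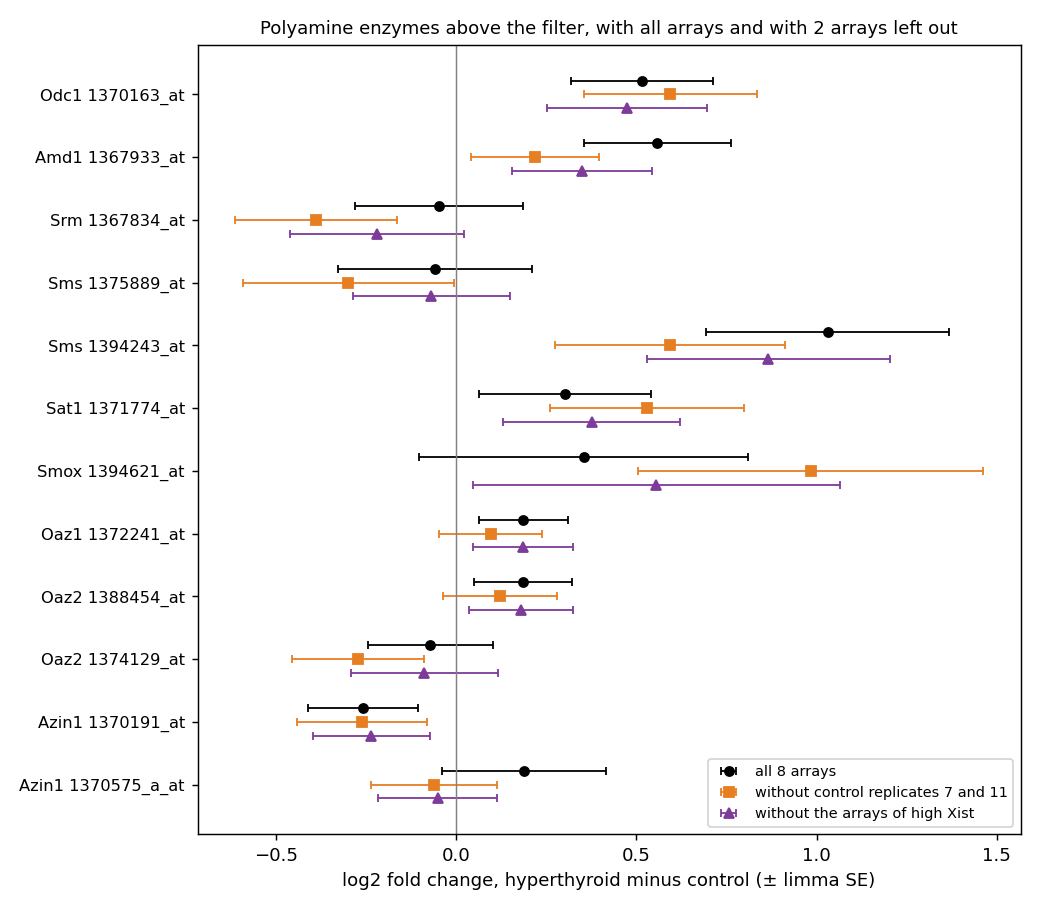
Log2 fold change, hyperthyroid minus control, of the 12 polyamine probe sets above the filter on the horizontal axis, with limma standard errors, for all 8 arrays (circles), without control replicates 7 and 11 (squares) and without the 2 arrays of high Xist (triangles). Odc1 keeps a similar value in all 3 fits (0.52, 0.59 and 0.47), while Amd1 is at 0.22 and Smox at 0.98 without control replicates 7 and 11.

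Array order differed between the members. Amd1 and Sms 1394243_at had the same 3 lowest arrays, control replicates 11, 7 and 8, and the same highest array, hyperthyroid replicate 2. Odc1 was highest on hyperthyroid replicate 1 and lowest on control replicate 9. Sat1 and Smox were lowest on control replicate 8, with hyperthyroid replicate 1 and control replicate 11 among their 3 highest arrays. Oaz1 and Oaz2 1388454_at shared hyperthyroid replicates 5 and 2 as their highest arrays and control replicate 11 as their lowest.

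Among the 13820 probe sets above the filter with 1 gene symbol, those with the pattern most like Odc1 over the 8 arrays were Tubb5, a beta-tubulin (Pearson r = 0.97, Spearman rho = 0.98), Coq9, of ubiquinone synthesis (r = 0.96, rho = 0.86), Cab39, a partner of the kinase LKB1 (r = 0.96, rho = 0.93), Mrps30 (r = 0.95, rho = 0.90) and Taf3 (r = 0.95, rho = 0.93). Those most like Amd1 were Mgme1, a mitochondrial DNA nuclease (r = 0.99, rho = 0.95), the kinase Mapkapk2 (r = 0.97, rho = 1.00), Dnajc21 (r = 0.97, rho = 0.98), Aldh2 (r = 0.97, rho = 0.95) and Zfp91 (r = 0.96, rho = 0.95). Those most like Sat1 were Ankrd44 (r = 0.97, rho = 0.88), Dpt, the matrix protein dermatopontin (r = 0.96, rho = 0.90), Mesd (r = 0.95, rho = 0.93), Mrpl2 (r = 0.94, rho = 0.90) and Crlf2 (r = 0.93, rho = 0.81). With 8 arrays such values are common: the fifth-ranked r of a probe set had a median of 0.94. All of these were read on the same arrays, and any difference between the groups enters the correlation. Their log2 fold changes ran from 0.06 for Mrpl2 to 0.84 for Crlf2, and none of the 15 passed the test over all probe sets.

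Other genes around the pathway were taken from 5 lists of 31 genes. Of these genes 29 had a probe set and 22 passed the filter, with 28 probe sets. None of the 28 passed in either direction (smallest limma adjusted p = 0.379). An unadjusted p under 0.05 was reached by 2 as higher and 2 as lower, beside 4.91% and 4.76% of all probe sets. The median log2 fold change was -0.06, with 11 above 0 and 17 below, beside 49.2% above 0 over all probe sets. The groups did not overlap for 3 of the 28, Asl, Mtap 1397644_at and Mri1, beside 6.15% of all probe sets.

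In the supply of ornithine, 3 of 7 genes passed the filter, with 7 probe sets, and the arginases Arg1 and Arg2 did not. Slc25a15, the mitochondrial ornithine carrier, read 208, 223, 151 and 112 on hyperthyroid replicates 1, 2, 3 and 5, against 122, 92.3, 122 and 63.9 on control replicates 7, 8, 9 and 11. Only hyperthyroid replicate 5 lay inside the control range, and the log2 fold change was 0.77 ± 0.29. Its 4 other probe sets above the filter gave 1.38 ± 0.67, -0.54 ± 0.58, -0.37 ± 0.52 and -0.07 ± 0.70. Asl, argininosuccinate lyase, gave -0.76 ± 0.38, with 28.0 to 42.0 on hyperthyroid and 46.4 to 70.6 on control arrays, close to the filter. Another probe set of Asl, under the filter, overlapped between the groups, with 8.27 to 29.1 on hyperthyroid and 7.69 to 39.8 on control arrays. Oat, ornithine aminotransferase, gave 0.02 ± 0.15.

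Of the genes that supply S-adenosylmethionine and salvage methionine, 7 of 8 passed the filter, with 9 probe sets, 3 above 0 and 6 below. Mtap, which clears the methylthioadenosine left by Srm and Sms, read 92.1, 97.6, 122 and 83.2 on hyperthyroid replicates 1, 2, 3 and 5, against 39.5, 77.0, 48.6 and 45.8 on control replicates 7, 8, 9 and 11. All hyperthyroid arrays lay above all controls on this probe set, with a log2 fold change of 0.89 ± 0.31, whereas another probe set of Mtap, near the filter, gave -0.05 ± 0.56. Mri1, the next enzyme of that salvage route, gave -0.47 ± 0.26, with 58.8 to 97.4 on hyperthyroid and 101 to 128 on control arrays. Mat2a and Mat2b, the catalytic and regulatory subunits that make S-adenosylmethionine, gave -0.22 ± 0.18 and 0.31 ± 0.17.

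Among further enzymes and regulators, 3 of 6 genes passed the filter, and Myc and Azin2 did not. Paox, the oxidase of acetylated polyamines, read 65.7, 47.1, 88.0 and 51.1 on hyperthyroid replicates 1, 2, 3 and 5, against 94.5, 84.7, 88.6 and 139 on control replicates 7, 8, 9 and 11. Hyperthyroid replicate 3 lay within the control range and the other 3 below it, with a log2 fold change of -0.67 ± 0.30. Aoc1, a diamine oxidase, gave -1.37 ± 0.82 and Oaz3, an antizyme known from testis, gave -0.77 ± 0.67, both on values near the filter.

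Of the transport genes, 5 of 6 passed the filter. Slc3a2, the heavy chain of amino acid exchangers, read 839, 669, 587 and 496 on hyperthyroid replicates 1, 2, 3 and 5, against 834, 785, 945 and 989 on control replicates 7, 8, 9 and 11. The log2 fold change was -0.47 ± 0.17, with only hyperthyroid replicate 1 inside the control range. Atp13a2, a lysosomal polyamine exporter, gave 0.18 ± 0.19, Slc18b1, a vesicular polyamine transporter, gave 0.18 ± 0.22, and the organic cation transporter Slc22a3 gave -0.41 ± 0.61. All 4 genes of the hypusine pathway passed the filter. Eif5a, the factor that receives hypusine made from spermidine, gave -0.01 ± 0.14, and Dhps and Dohh, which make it, gave 0.05 ± 0.18 and 0.07 ± 0.30. The related Eif5a2 gave 1.09 ± 0.72, with 32.2 to 50.4 on hyperthyroid arrays, 2 controls at 6.54 and 3.92 and the other 2 at 48.2 and 43.5.

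**Figure D4:**
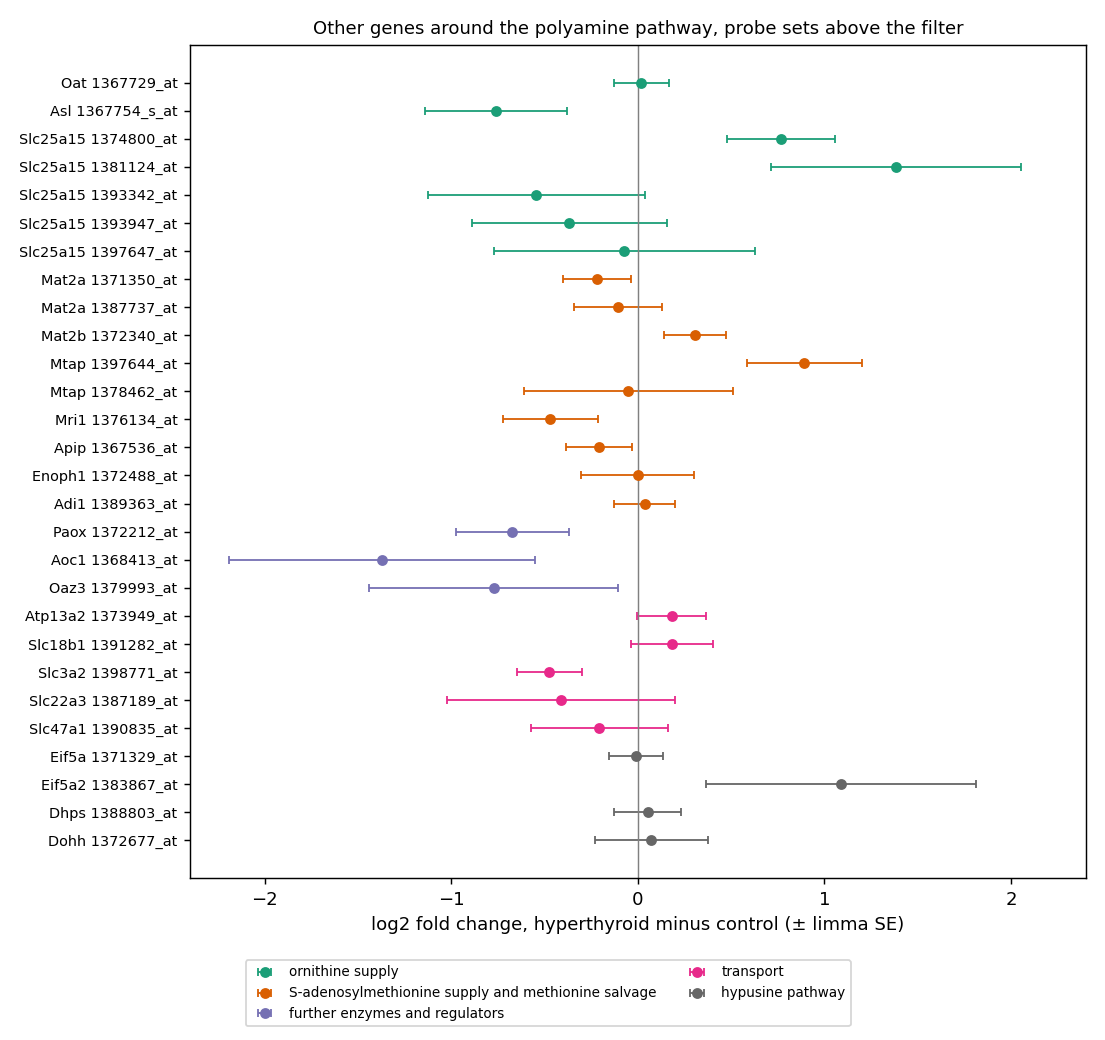
Log2 fold change, hyperthyroid minus control, with limma standard errors on the horizontal axis, for the 28 probe sets above the filter of other genes around the polyamine pathway, coloured by list. None passed the test over all probe sets; the values for Slc25a15 spread from -0.54 to 1.38 over its 5 probe sets.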

How the data were processed

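RNA of the tibialis anterior of 8 rats, 1 array per rat, was copied from its poly(A) tail, labelled with biotin and hybridised to Affymetrix arrays, per the labels' protocols. Signal therefore reads sequence close to the 3′ end. The authors deposited intensities on a linear scale. Their submitters' processing notes name GCOS, Affymetrix's own software, without version or settings. Equal trimmed means show that each array had been scaled to 1 target, which removes any difference in total RNA.

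A pseudocount of 3.41 (10th percentile of all intensities) was added before taking log2, and probe sets with a mean above the 40th percentile (4.69) were kept. Of 31099 probe sets, 57 were controls, 20826 carried 1 symbol, 436 several and 9780 none. All 9 members matched RefSeq (GRCr8) by Entrez identifier, and 8 matched its promoter table, Azin1 being the other. limma (version 3.58.1, R 4.3.3) with a mean-variance trend gave two-sided p-values, Benjamini-Hochberg adjusted at 0.05 over the 18625 kept probe sets. It was tested on simulated data. The number of arrays limits the precision. The p-values set the difference between the group means against the spread between arrays within the groups, with 1 array per rat, and sex was not fitted.

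The members, the 5 pathway lists and the marker lists were chosen with earlier results of these data known. Named were all members, up to 4 genes of each pathway list with the smallest p, and the 5 probe sets most correlated with each of Odc1, Amd1 and Sat1. A gene with several probe sets is represented by the kept one of highest mean, and markers were summed over such probe sets. Alternatives covered scaling (quantile, or centring on array medians), a pseudocount of 12.6, no filter or one at the 60th percentile, the variance model (no trend, robust, array weights) and averaging the probe sets of a gene. Each array was also left out in turn, as were control replicates 7 and 11 together. Leaving out the 2 arrays of high Xist and fitting without moderation of the variance were chosen after seeing the data. The labels do not set control replicates 7 and 11 apart from the other controls, so leaving them out together also rests on values of these arrays.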

Additional observations from a re-analysis of the deposited data

Results flagged for a closer look

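Of 62 groups of 4 arrays examined for a single array far from the rest, 5 held one, and chance gives about 1 in 20. Azin1 1370575_a_at read 193 on control replicate 11, below 389 to 407 on the other controls. Azin1 1379003_at, under the filter, read 37.2 on hyperthyroid replicate 2 against 4.78 to 6.66 on the others of its group, and 22.4 on control replicate 9 against 2.56 to 3.10. Aoc1 read 115 on control replicate 11, above 23.6 to 31.3 on the other controls, and Oaz3 read 2.997 on hyperthyroid replicate 5, below 29.1 to 38.4 on the other hyperthyroid arrays.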

How the results depend on the processing

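No member and no other gene around the pathway passed the test under any of the 20 alternatives. The number of all probe sets that passed, 6, was 19 with centring on array medians, 16 with no filter, 22 with robust variance, 10 with array weights, 0 without the variance trend and 1 without moderation of the variance. It was 1 for the mean of the probe sets of a gene, 1 without both control replicates 7 and 11, and 2 without both arrays of high Xist. With 1 array left out it ran from 0, without hyperthyroid replicate 3 or control replicate 7, to 5. The cause was not tested. The median log2 fold change of the members, 0.19, was 0.41 with centring on array medians, where the median of all probe sets moved to 0.21 because array medians were lower in the hyperthyroid group, and 0.30 when probe sets of a gene were averaged. With 1 array left out it ran from 0.13 to 0.26, and leaving out both control replicates 7 and 11 gave 0.11. Centring adds 1 constant per array, so it moved every log2 fold change alike, and 6 of 12 members then had an unadjusted limma p under 0.05 (13.7% of all probe sets). After quantile normalization 4 did, Oaz1 besides Odc1, Amd1 and Sms 1394243_at, beside 9.17% of all probe sets. Without both control replicates 7 and 11 only Odc1 reached it, beside 8.66% of all probe sets. Without both arrays of high Xist only Sms 1394243_at did, beside 8.01%. No paired analysis was possible because the groups share no replicate number. With 4 arrays per group, SEs of the members from 0.12 to 0.46 limit what can be called.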
